A study of Homo sapiens with 9 samples.

Results

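HEYA8 cells treated for 24 h with compound 32 were compared with HEYA8 cells treated for 24 h with sunitinib, over all genes. The 6 libraries of these groups, 3 each, are chosen by their treatment labels out of 9 in the series, and the 3 libraries of cells given DMSO, the solvent control, serve here as the reference level. HEYA8 is an established human ovarian cancer cell line, given as wild type and as high-grade serous, and it was grown in DMEM with fetal bovine serum. Polyadenylated RNA was sequenced. All 9 samples have the same batch label. A single line was used, so the libraries carry no spread between lines. The dose of neither compound is given in the sources used here, so each value compares these treatments as applied, at doses that may not match. The series text names biological replicates for sunitinib and DMSO but not for compound 32. The tests pool the variation within all 3 groups, and for compound 32 what they draw on may be technical variation alone.

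Sunitinib inhibits several receptor tyrosine kinases, including those for VEGF, PDGF and stem cell factor. Compound 32 is known here by its code name only. The following gene programmes recur below. E2F transcription factors, released from the pocket proteins when G1 cyclin-dependent kinases are active, drive genes of the G1/S transition and DNA replication. ATF4 is translated when eIF2alpha is phosphorylated, as in amino acid shortage or endoplasmic reticulum stress, and drives amino acid synthesis and transport. Hypoxia-inducible factors (HIF) are stable when prolyl hydroxylases, which need oxygen, iron and oxoglutarate, are inactive, and they drive glycolysis and angiogenic genes.

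Library totals lay between 15498101 and 18006171 counts. Sunitinib replicate 3 stood apart from its group: its Pearson correlations of log2 CPM across genes with replicates 1 and 2 were 0.9815 and 0.9811, against at least 0.9915 for every other replicate pair. Of its counts, 7.65% came from genes for ribosomal proteins and 4.71% from the mitochondrial genome, against at most 5.05% and 3.44% in the other 8 libraries. Results are therefore given with it and without it. Among 15 markers of ovarian and fallopian epithelium, PAX8 averaged 132, 123 and 117 CPM (counts scaled to the size of each library) in DMSO, sunitinib and compound 32, while 8 markers averaged under 1 CPM. MUC16, FOLR1 and CDH1, which many serous carcinomas express, had 7, 5 and 3 counts over all 9 libraries. The 15 summed to 1245 to 1327 CPM in DMSO, 1299 to 1383 under sunitinib and 1458 to 1574 under compound 32. Summed markers of leukocytes and of erythroid cells reached at most 3.76 and 0.159 CPM in any library. Markers of endothelium summed to 14.04 to 17.68 CPM under sunitinib and 6.574 to 7.509 under compound 32, mostly through CDH5 (means of 13.79 and 4.097 CPM), while PECAM1 and CLDN5 had higher means under compound 32. Markers of fibroblasts and smooth muscle summed to 19.84 to 22.24 and 13.08 to 15.12 CPM, mostly through ACTA2 (18.51 and 10.29), with COL1A1 in the other direction (1.049 and 2.906). The part of such cells in the results was not tested.

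The compounds left the cells with widely different transcriptomes. In edgeR's quasi-likelihood test, with a Benjamini-Hochberg adjusted p under 0.05 as the threshold for a call, 7498 of 15232 genes tested (49.2%) differed. Of these, 3664 (24.1%) were higher and 3834 (25.2%) were lower under compound 32 than under sunitinib. At least 2-fold, which is 1 on the log2 scale, 820 genes (5.38%) were higher and 1230 (8.08%) were lower. Without regard to the test, the 3 libraries of each compound did not overlap in 4238 genes (27.8%) that were higher and 4423 (29%) that were lower under compound 32, and 3597 (23.6%) and 3705 (24.3%) met both criteria. The median log2 difference over all genes tested was -0.03. In bulk RNA, fewer cells that express a gene and less of its RNA per cell cannot be told apart. Every difference below is compound 32 minus sunitinib on the log2 scale, ± its standard error (SE), with 3 libraries per group, unless it is stated to be against DMSO. A list's counts are read against the shares of 24.1% and 25.2%, and those without sunitinib replicate 3 against 29.7% and 29% in that fit. The lists, chosen with earlier results of these data known, are described without a test.

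Without sunitinib replicate 3, 9139 of 15580 genes tested (58.7%) were called, 4620 (29.7%) higher and 4519 (29%) lower under compound 32, of which 851 (5.46%) and 1305 (8.38%) at least 2-fold. A total of 7219 genes were called both with and without that library, and all 7219 had the same direction. Another 279 genes were called only with it and 1920 only without it. Of the 2050 genes called at least 2-fold with all libraries, 0 turned direction when it was left out.

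**Figure D1:**
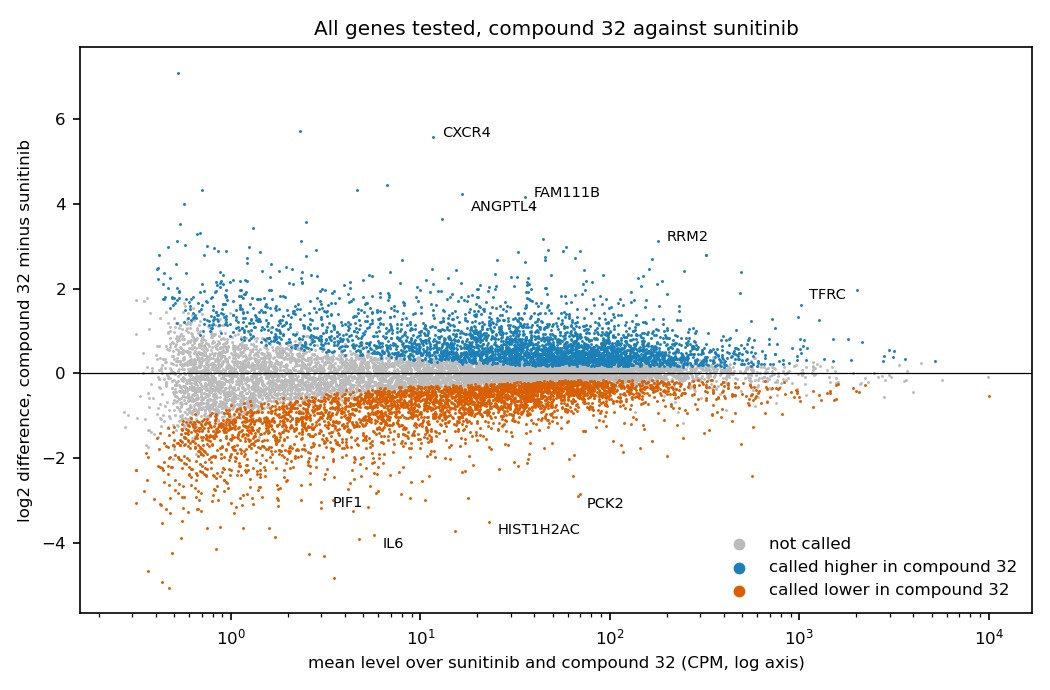
Each point is 1 of the 15232 genes tested, with the mean level over sunitinib and compound 32 in CPM on a log axis against the log2 difference, compound 32 minus sunitinib. Blue points (3664) were called higher and orange points (3834) lower under compound 32 at an edgeR adjusted p under 0.05, and the largest differences lie among genes of low and middle level.

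The largest difference upward among protein-coding genes with a mean of at least 5 CPM was in CXCR4 (ENSG00000121966, chromosome 2, 136114349 to 136118165, minus strand, GRCh38), the receptor of the chemokine CXCL12 and a HIF target. It stood at 0.423, 0.248 and 0.780 CPM under sunitinib and at 22.2, 24.7 and 21.9 CPM under compound 32, with 1.62, 2.76 and 1.35 CPM in DMSO. Compound 32 was far above both other groups and sunitinib was the lowest, with no overlap between any of the groups. The log2 difference was 5.56 ± 0.28 (edgeR adjusted p = 4.51e-08). ANGPTL4, a secreted inhibitor of lipoprotein lipase and also a HIF target, had 1.85, 2.17 and 0.9753 CPM under sunitinib, 28.5, 32.9 and 33.6 CPM under compound 32 and 2.53, 2.52 and 2.77 CPM in DMSO. Its log2 difference was 4.23 ± 0.19 (adjusted p = 1.73e-08 in edgeR).

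The other 10 of the 12 largest upward differences included several genes of the G1/S transition and S phase. E2F2, an activating E2F factor, had 0.794, 0.434 and 0.455 CPM under sunitinib, 12.7, 12.8 and 12.7 under compound 32 and 7.65, 5.34 and 6.88 in DMSO. FAM111B, a protease gene of S phase, had 3.49, 3.84 and 4.03, then 68.7, 68.3 and 65.1, with 39.9, 33.9 and 34.6 CPM in DMSO. In both genes the groups were fully separated, with sunitinib lowest, DMSO between and compound 32 highest. Log2 differences were 4.45 ± 0.22 for E2F2 and 4.15 ± 0.10 for FAM111B. CCNE2, which encodes cyclin E2, followed at 3.89 ± 0.12, although 37.1% of its exon bases overlap INTS8 on the opposite strand and no source used here gives the strand setting of the counts. E2F8 (3.64 ± 0.11), an E2F repressor, ZNF367 (3.16 ± 0.11), a zinc finger factor, and RRM2 (3.11 ± 0.09), the small subunit of ribonucleotide reductase, came next. CLSPN (2.97 ± 0.08), CDC25A (2.92 ± 0.09), MCM10 (2.88 ± 0.08) and E2F1 (2.87 ± 0.07) completed the set. The largest adjusted p among these 10 was 4.2e-08, that of E2F2, in edgeR.

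The largest difference downward was in IL6, among called protein-coding genes with a mean of at least 5 CPM and no overlap between the compounds. This gene (ENSG00000136244, chromosome 7, 22725884 to 22732002, plus strand) encodes an inflammatory cytokine. IL6 had 8.52, 9.86 and 13.6 CPM under sunitinib, 0.646, 0.688 and 0.896 under compound 32 and 1.04, 1.32 and 0.965 in DMSO, so sunitinib stood far above both other groups, at a log2 difference of -3.82 ± 0.25 (edgeR adjusted p = 3.13e-07). Of its exon bases, 20.7% overlap a noncoding gene on the opposite strand. Histone genes HIST1H2AC (-3.50 ± 0.14), HIST2H2BE (-3.16 ± 0.21) and H1F0 (-2.84 ± 0.10), the last encoding linker histone H1.0, were also among the 12. So were SLC6A9 (-2.95 ± 0.18), a glycine transporter, PCK2 (-2.88 ± 0.09), the mitochondrial phosphoenolpyruvate carboxykinase, and ASS1 (-2.84 ± 0.19), argininosuccinate synthase. PCK2 had 125, 124 and 112 CPM under sunitinib against 14.9, 17.96 and 16.0 under compound 32 and 20.5, 21.5 and 22.4 in DMSO.

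The helicase gene PIF1 differed from the rest of this set in its reference level. It had 17.4, 18.7 and 17.6 CPM in DMSO, 11.7, 9.92 and 9.82 under sunitinib and 1.42, 1.06 and 2.09 under compound 32, so that both treated groups lay below DMSO and compound 32 was lowest. Its log2 difference between the compounds was -2.77 ± 0.19 (edgeR adjusted p = 4.47e-07). LURAP1L (-2.94 ± 0.18), IL20RB (-2.82 ± 0.25), a receptor chain of the IL-20 family, CCDC92 (-2.54 ± 0.13) and OSCAR (-2.43 ± 0.12), an osteoclast-associated receptor, made up the 12. OSCAR had 114, 112 and 97.1 CPM under sunitinib, against 17.0, 20.5 and 22.2 under compound 32 and 19.1, 20.02 and 24.1 in DMSO, and only the sunitinib group was separated from the others.

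**Figure D2:**
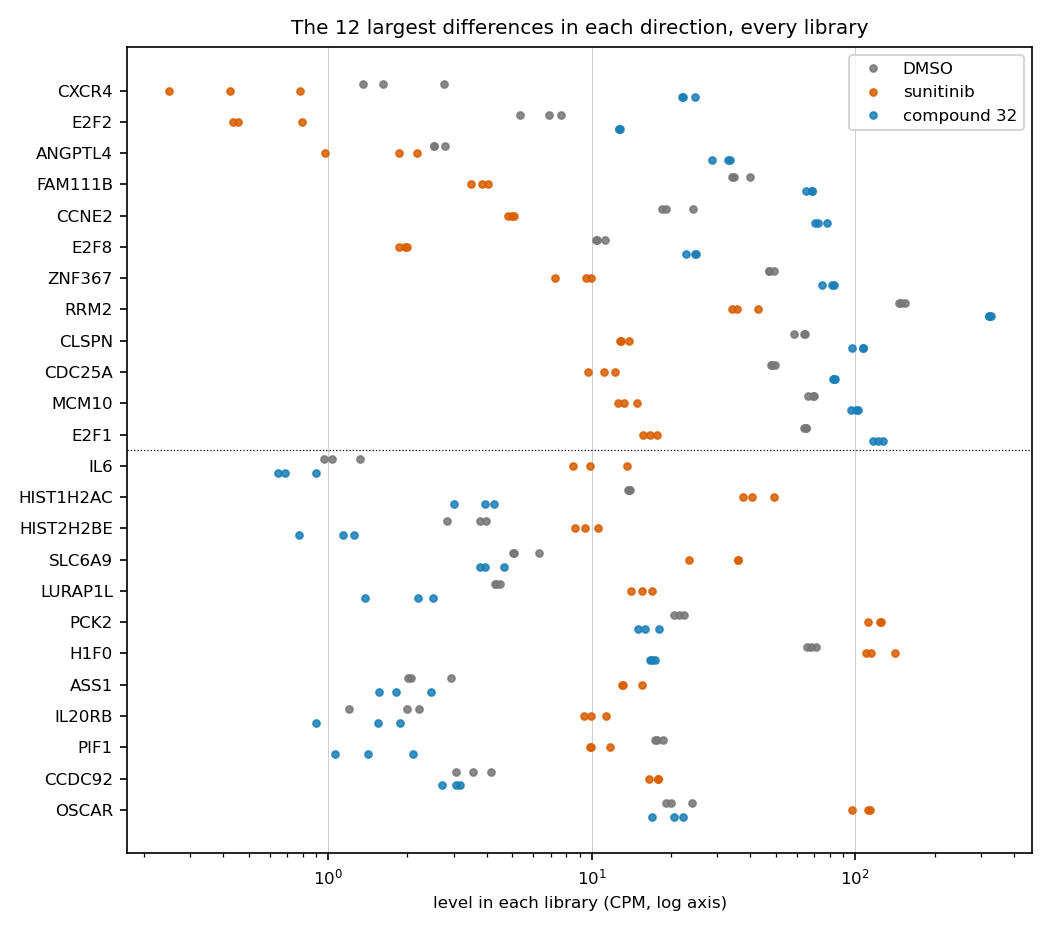
Levels in every library (CPM, log axis) of the 12 protein-coding genes with the largest difference in each direction, higher in compound 32 above the dotted line and lower below it, with 3 points per group. CXCR4 lies at 21.9 to 24.7 CPM under compound 32 and under 1 CPM in all sunitinib libraries, and IL6 shows the opposite order.

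Gene lists separated the compounds in distinct ways. For each list, the median over its members of the log2 difference to the DMSO mean was taken in every library. Both sets of values share the DMSO libraries and are set side by side only. Genes of replication origins and forks had medians of -1.15 to -1.12 in the sunitinib libraries and 0.30 to 0.31 in the compound 32 libraries. HIF targets outside glycolysis stood at -0.12 to 0.03 and 1.35 to 1.41, glycolysis at -0.16 to -0.11 and 0.84 to 0.89, and ATF4 targets at 1.08 to 1.16 and -0.03 to 0.04. The replication-dependent histones lay above DMSO under sunitinib, at 0.79 to 1.18, and below it under compound 32, at -1.25 to -1.04. For genes of mitosis the ranges were close, -0.90 to -0.73 and -0.76 to -0.69.

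**Figure D3:**
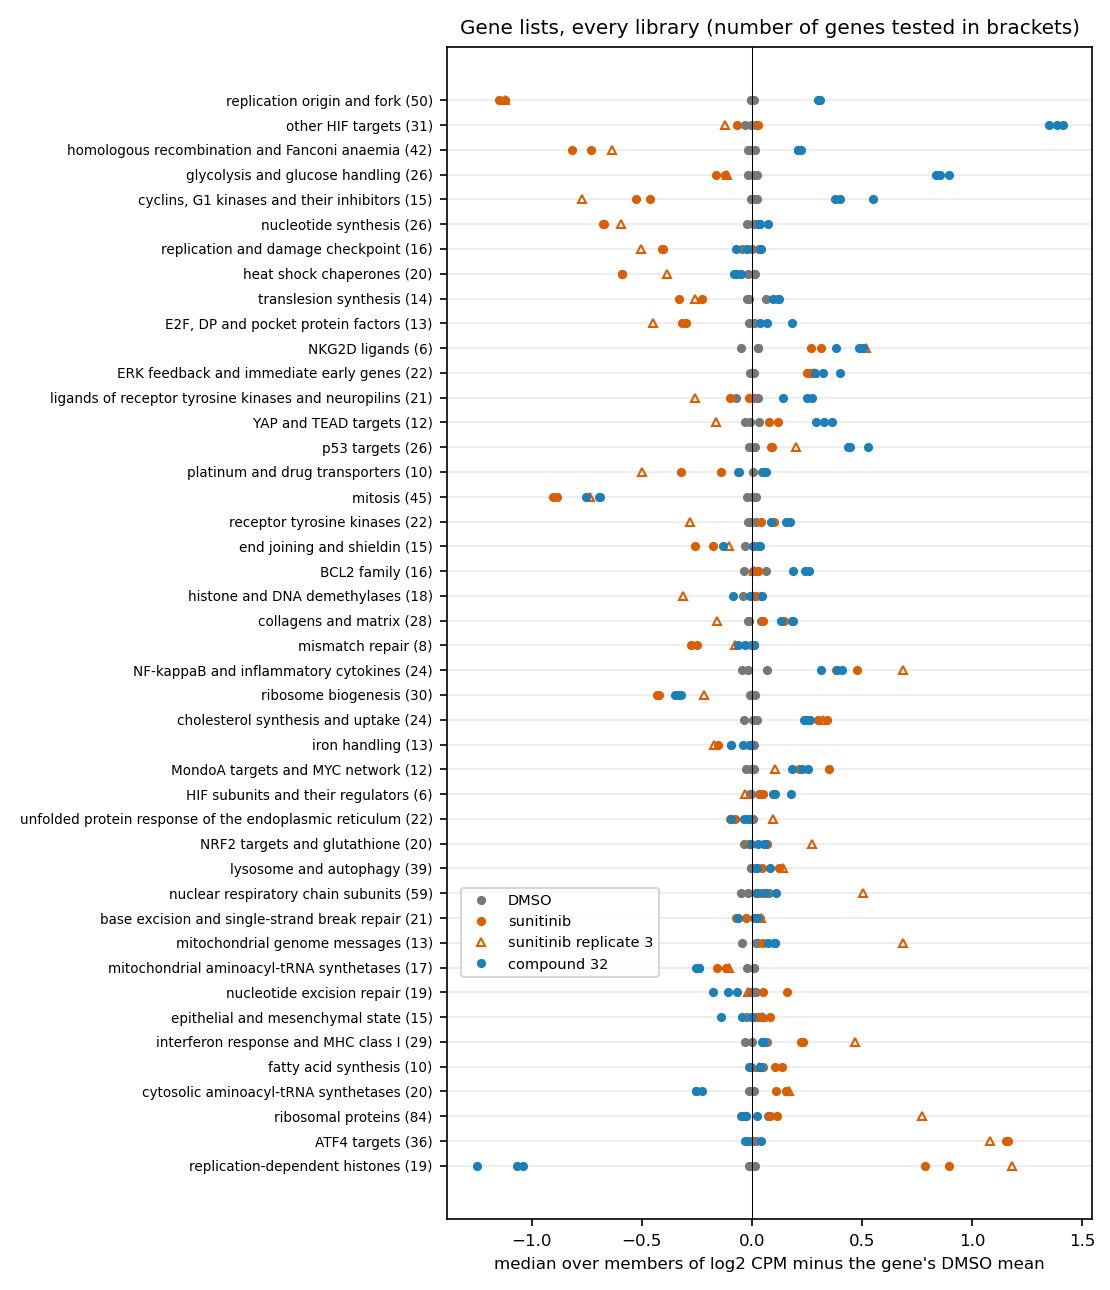
For 44 gene lists, 1 point per library gives the median over members of log2 CPM minus the gene's DMSO mean, with sunitinib replicate 3 as an open triangle and lists ordered by the median difference between the compounds. Sunitinib lies left of DMSO in the replication list and right of it in the ATF4 list, whereas compound 32 lies right of DMSO in the lists of glycolysis and other HIF targets.

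Among 13 E2F, DP and pocket protein genes, 7 were higher under compound 32 and 2 lower, with a median of 0.33. The activators E2F1 and E2F2, the repressor E2F8 and the pocket protein gene RBL1 (1.25 ± 0.07) were higher. RBL2 (-0.74), a pocket protein of resting cells, and E2F5 (-1.13) were lower, and E2F4 (-0.16), E2F6, E2F7 and TFDP2 were not called. E2F1 had 15.7, 17.7 and 16.7 CPM under sunitinib, 63.9, 65.0 and 65.0 in DMSO and 117, 122 and 128 under compound 32. The groups were in that order with no overlap.

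Of 50 genes of replication origins and forks, 43 were higher under compound 32 and 0 lower in edgeR's test, 0 lower at an unadjusted p under 0.05 and 0 in DESeq2 and in limma voom. The list had a median of 1.45, or 1.47 without sunitinib replicate 3. Without sunitinib replicate 2, 1 member was called lower. MCM4, a subunit of the replicative helicase, had 152, 162 and 159.9 CPM under sunitinib, 592, 596 and 583 in DMSO and 819, 835 and 844 under compound 32. DTL, an adaptor of the ubiquitin ligase that removes CDT1, had 16.0, 18.5 and 17.0 under sunitinib, 64.4, 64.3 and 64.9 in DMSO and 115, 112 and 112 CPM under compound 32. Both genes were lowest under sunitinib and highest under compound 32 in every library. Their log2 differences were 2.40 ± 0.06 and 2.72 ± 0.07, with an edgeR adjusted p of 4.83e-10 each. The licensing factors CDT1 (2.68), CDC6 (2.10) and ORC1 (2.75), the sliding clamp PCNA (2.24) and the flap nuclease FEN1 (2.31) were called too. The members not called were DBF4, POLD2, RPA3 and the origin recognition subunits ORC2, ORC3, ORC4 and ORC5, from -0.22 to 0.24.

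CLSPN, an adaptor of the replication checkpoint, had the largest difference of this list: 12.9, 13.8 and 12.9 CPM under sunitinib, 64.6, 58.6 and 63.9 in DMSO and 107, 107 and 97.0 under compound 32. For that reason its promoter is shown, from 250 bases before to 50 bases after the gene's start in RefSeq (chr1:35769929-35770228, minus strand, GRCh38.p14). The promoter held 1 match to the E2F motifs searched on both strands, TTTCCCGC, TTTCGCGC, TTTGCCGC and TTTGGCGC. Capitals mark the match, here on the opposite strand of the 5′ to 3′ sequence.
CLSPN: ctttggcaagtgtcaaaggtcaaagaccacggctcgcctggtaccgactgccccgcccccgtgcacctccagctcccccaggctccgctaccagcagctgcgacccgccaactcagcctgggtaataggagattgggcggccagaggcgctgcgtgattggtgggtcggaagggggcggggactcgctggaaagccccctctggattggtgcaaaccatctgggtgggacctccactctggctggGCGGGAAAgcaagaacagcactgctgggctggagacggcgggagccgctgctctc
Of the 44 genes of the list with a promoter in the RefSeq table, 43.2% held such a match, against 3.33% of all 27305 promoters. Here and below, all promoters include those of genes not tested, so they are not a like background for lists of tested genes. A match is a run of letters, not evidence of binding.

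Nucleotide synthesis followed, with 19 of 26 genes higher, 1 lower and a median of 0.60. RRM2 had 35.7, 34.0 and 42.8 CPM under sunitinib, 155, 149.6 and 147 in DMSO and 327, 321 and 323 under compound 32, and its partner RRM1 had 111, 114 and 121 under sunitinib, 256, 267 and 260.4 in DMSO and 345, 349 and 349 CPM under compound 32. Both subunit genes were again lowest under sunitinib and highest under compound 32. The folate enzyme MTHFD1 differed by 1.02 ± 0.06, with compound 32 close to DMSO (0.03 against DMSO). DHODH (-0.52), of pyrimidine synthesis, was the 1 gene lower, and without sunitinib replicate 1 or compound 32 replicate 3 there were 2. TYMS, thymidylate synthase (1.29 ± 0.07), shares 39.2% of its exon bases with ENOSF1 on the opposite strand.

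Among 15 cyclins, G1 kinases and inhibitors, 11 were higher and 3 lower, with differences from -2.405 to 3.888 over the list. CDC25A, the phosphatase that activates cyclin-dependent kinases at G1/S, had 9.69, 12.3 and 11.1 CPM under sunitinib, 47.8, 49.6 and 48.5 in DMSO and 83.6, 82.4 and 83.3 under compound 32. CDK2 (1.75), CCND3 (1.52 ± 0.07), CCNE1 (1.35) and SKP2 (1.34 ± 0.06), a ubiquitin ligase subunit for p27, were higher. So were the inhibitor genes CDKN2C (1.86) and CDKN1A (0.82), while CDKN1B (-0.32) and CDKN1C (-0.96) were lower. The genes higher under compound 32 thus included both activators and inhibitors of G1 kinases.

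Genes of mitosis were divided. Of 45 tested, 18 were higher under compound 32, 14 lower and 13 not called, with a median of 0.15. Leaving out sunitinib replicate 3 gave counts of 24 and 16. MYBL2, a component of the MuvB complex that activates mitotic genes, had 47.3, 52.0 and 49.2 CPM under sunitinib, 127, 126 and 121 in DMSO and 264, 273 and 282 under compound 32 (2.46 ± 0.07, edgeR adjusted p = 4.83e-10). CDK1 (1.37 ± 0.13), the mitotic kinase, and MAD2L1 (1.13 ± 0.08), of the spindle checkpoint, were higher as well. ANLN, which encodes a scaffold of the cytokinetic ring, had 169, 184 and 163 CPM under sunitinib, 352, 356 and 354 under compound 32 and 438, 413 and 416 in DMSO, so both groups were under DMSO and sunitinib was lowest.

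The order was the reverse for CCNB1, cyclin B1, which had 277, 295 and 282 CPM in DMSO, 140.4, 147 and 204 under sunitinib and 78.1, 68.5 and 70.6 under compound 32. PLK1, a kinase needed for mitotic entry and spindle assembly, had 168, 181 and 173 in DMSO, 85.1, 86.1 and 81.0 under sunitinib and 44.9, 43.4 and 43.2 CPM under compound 32. Both were below DMSO in every treated library and lowest under compound 32, with log2 differences between the compounds of -1.18 ± 0.12 and -0.94 ± 0.06 (edgeR adjusted p = 1.42e-05 and 3.86e-07). KIF20A (-1.10), CCNB2 (-0.95), CDC25B (-0.85), CDC20 (-0.81), DLGAP5 (-0.76), AURKA (-0.76), HMMR (-0.71), CENPA (-0.57), KIF18A (-0.56), CENPE (-0.52), KIF2C (-0.34) and NEK2 (-0.33) were the others lower. Several of them encode proteins that act from mitotic entry to anaphase. TOP2A (0.11), TPX2 (0.04) and CDCA8 (0.01) were not called.

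The MYBL2 promoter held no match to TTTGAA, the cell cycle homology region read by MuvB complexes, on either strand of the 300 bases searched. The promoter of MAD2L1 (chr4:120066799-120067098, minus strand, GRCh38.p14), a named member with a match, chosen after its sequence was seen, is shown with the match in capitals.
MAD2L1: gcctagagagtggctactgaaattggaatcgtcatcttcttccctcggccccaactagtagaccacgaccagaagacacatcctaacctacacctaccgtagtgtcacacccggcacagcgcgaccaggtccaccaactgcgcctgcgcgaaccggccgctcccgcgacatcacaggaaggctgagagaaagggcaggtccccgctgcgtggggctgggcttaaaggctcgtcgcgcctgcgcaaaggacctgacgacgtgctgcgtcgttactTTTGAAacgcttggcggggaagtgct
A match was present in 65.8% of the 38 mitosis genes with a promoter in the table and in 15.4% of all promoters.

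**Figure D4:**
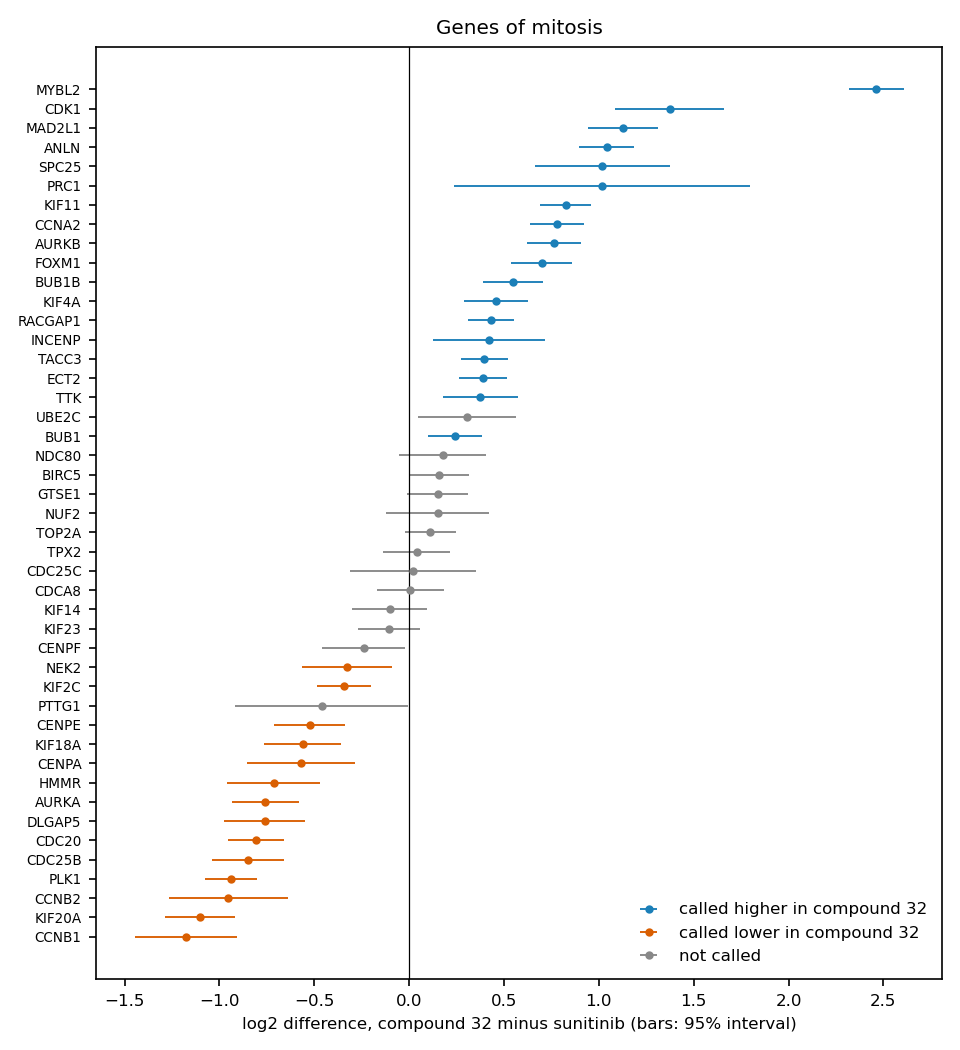
Log2 difference, compound 32 minus sunitinib, of the 45 tested genes of mitosis, as points with 95% intervals from the edgeR fit, in blue where called higher, orange where called lower and grey where not called. The list runs from 2.46 for MYBL2 to -1.18 for CCNB1.

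Replication-dependent histone genes were on the other side of the comparison from the replication machinery. Of 71 such genes in the table, 19 passed the count filter, and 15 of these were lower under compound 32 and 0 higher in edgeR's test. The number higher was also 0 at an unadjusted p under 0.05 and 0 in DESeq2 and in limma voom. These genes mostly make mRNA without a poly(A) tail, whereas the libraries here were made from polyadenylated RNA. HIST1H2AC had 40.7, 37.5 and 49.4 CPM under sunitinib, 14.0, 13.9 and 13.8 in DMSO and 4.27, 3.00 and 3.94 under compound 32, with no overlap between the groups. HIST1H2BK (-1.67 ± 0.10) and HIST1H2BD (-2.21 ± 0.19) had the same order of means. The H1F0 gene, whose mRNA is polyadenylated, had 110.2, 115 and 141 under sunitinib, 68.2, 71.1 and 65.8 in DMSO and 16.9, 17.5 and 16.6 CPM under compound 32. Near-identical histone copies can share reads, so single members are uncertain. The count filter kept genes that are high in 1 group, so these counts do not stand for all 71.

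DNA repair genes differed by pathway. In homologous recombination and the Fanconi anaemia pathway, 29 of 42 genes were higher under compound 32 and 3 lower, with a median of 0.92. BRIP1, a helicase, had 10.0, 9.80 and 9.95 CPM under sunitinib, 29.9, 32.4 and 29.7 in DMSO and 58.8, 63.6 and 62.6 under compound 32. DNA2 (2.06 ± 0.08), a nuclease of end resection, XRCC2 (2.04 ± 0.09), of strand exchange, and RAD54L (2.10 ± 0.10), a recombination motor, were higher with no overlap between the compounds, although 25.1% of the exon bases of RAD54L overlap LRRC41 on the opposite strand. RAD50 (-0.80), FANCF (-1.26) and MUS81 (-0.42) were lower, and without sunitinib replicate 3 there were 5 lower genes. PALB2 (-0.13), NBN (-0.03) and FANCC (0.10) were among the 10 not called.

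In mismatch repair, 3 of 8 genes were higher, EXO1 (2.86 ± 0.16) and MSH6 (1.64 ± 0.06) among them, PMS2 (-0.50 ± 0.10) was lower, and MSH3, PMS1 and MLH3 were among those not called. MSH6 had 44.4, 45.1 and 44.0 CPM under sunitinib, 121, 118 and 119.6 in DMSO and 140.3, 139 and 135 under compound 32, with 16.2% of its exon bases shared with FBXO11 on the opposite strand. Leaving out sunitinib replicate 3 gave 2 lower genes. Base excision repair had 6 genes higher and 8 lower of 21. UNG, the uracil glycosylase of replicating cells, had 24.2, 27.0 and 30.0 under sunitinib, 91.7, 94.1 and 90.2 in DMSO and 125, 122 and 120.0 CPM under compound 32 (2.18 ± 0.08), whereas MPG (-0.98 ± 0.11), an alkyladenine glycosylase gene that overlaps NPRL3 over 27.3% of its exon bases, was lower. The count of lower genes was 4 without compound 32 replicate 1 and 5 without replicate 2 of that group.

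Nucleotide excision repair had 2 of 19 genes higher, DDB2 (0.71 ± 0.08), also a p53 target, and ERCC3 (0.38 ± 0.06), and 6 lower. GTF2H3 (-0.50 ± 0.06) and XPA (-0.93 ± 0.19) were among those lower, and without sunitinib replicate 3 the counts were 4 and 8. End joining had 3 higher and 4 lower of 15, with RIF1 (0.91 ± 0.11), a factor that limits end resection, and POLL (-0.43 ± 0.09), a gap-filling polymerase, on opposite sides. Leaving out sunitinib replicate 3 gave 7 higher. Of 16 checkpoint genes 9 were higher and RAD17 (-0.79) was lower. PKMYT1, an inhibitory kinase of CDK1, had 11.9, 12.6 and 8.65 CPM under sunitinib, 36.5, 33.4 and 34.2 in DMSO and 49.9, 53.004 and 58.5 under compound 32, although 24.5% of its exon bases overlap PAQR4. TOPBP1 (0.99 ± 0.06) and CHEK1 (0.90 ± 0.07), of the ATR pathway, were higher, and ATR (0.17) and ATM (0.03) were not called. Without sunitinib replicate 2, 2 checkpoint genes were lower. In translesion synthesis 7 of 14 were higher, among them USP1 (1.27 ± 0.07) and RAD18 (1.17 ± 0.07), and POLI (-0.69) was lower.

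Glucose handling and HIF targets formed the other large set higher under compound 32, and here the list medians of sunitinib lay near DMSO. Of 26 glycolysis genes 25 were higher and 0 lower in edgeR's test, and 0 were lower at an unadjusted p under 0.05 and 0 in DESeq2 and in limma voom. The median was 0.88, or 0.94 without sunitinib replicate 3. ENO2, a neuronal-type enolase that HIF induces, had 103, 103 and 105 CPM in DMSO, 73.1, 76.0 and 85.4 under sunitinib and 413, 414 and 413 under compound 32. HK2, hexokinase, had 86.5, 85.1 and 86.9 in DMSO, 70.2, 77.7 and 57.9 under sunitinib and 313, 313 and 304 CPM under compound 32, and SLC2A1, the glucose transporter GLUT1, had 169, 182 and 176 in DMSO, 221, 219.8 and 179.7 under sunitinib and 743, 776 and 781 CPM under compound 32. In all of these genes the compound 32 libraries lay above every other library. Their log2 differences were 2.40 ± 0.07, 2.17 ± 0.09 and 1.89 ± 0.09, with edgeR adjusted p of at most 2.23e-08. PDK1 (2.06 ± 0.09), a pyruvate dehydrogenase kinase, and LDHA (1.96), lactate dehydrogenase, were higher, as was GAPDH by 0.28. PPP1R3C (0.55), of glycogen metabolism, was the gene not called.

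Among 31 other HIF targets, 26 were higher and 1 lower, with a median of 1.24. KDM3A, an oxygen-dependent histone demethylase, had 43.3, 40.9 and 40.8 CPM in DMSO, 40.2, 38.8 and 38.2 under sunitinib and 137, 139.6 and 136 under compound 32. BNIP3, a mitophagy receptor, had 82.4, 76.3 and 69.7 in DMSO, 62.6, 74.9 and 106 under sunitinib and 575, 551 and 556 CPM under compound 32. Sunitinib overlapped or adjoined DMSO in both genes and compound 32 stood above. NDRG1 behaved otherwise: it had 132, 131 and 136 CPM in DMSO, 329.9, 335 and 331 under sunitinib and 783, 803 and 772 under compound 32, so both groups were above DMSO and did not overlap (1.24 ± 0.06 between the compounds). LOX (1.76 ± 0.08), a lysyl oxidase, P4HA1 (1.57), a collagen prolyl hydroxylase, ADM (2.35), adrenomedullin, and EGLN1 (1.20), the main HIF prolyl hydroxylase, were higher. CITED2 (-0.36), an inhibitor of HIF, was the 1 gene lower, and there were 2 without sunitinib replicate 2, without sunitinib replicate 3 or without compound 32 replicate 3. PPFIA4, which encodes a liprin and averaged under 5 CPM, had 0, 0.186 and 0.0650 CPM under sunitinib and 4.78, 4.19 and 4.66 under compound 32. VEGFA (-0.15), LOXL2, MXI1 and BHLHE41 were not called.

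The ANGPTL4 promoter (chr19:8363905-8364204, plus strand, GRCh38.p14) is shown because the gene had, after CXCR4, the largest difference upward among HIF targets with a mean of at least 5 CPM. It held 1 match to ACGTG, the core of the hypoxia response element, in capitals and on the opposite strand.
ANGPTL4: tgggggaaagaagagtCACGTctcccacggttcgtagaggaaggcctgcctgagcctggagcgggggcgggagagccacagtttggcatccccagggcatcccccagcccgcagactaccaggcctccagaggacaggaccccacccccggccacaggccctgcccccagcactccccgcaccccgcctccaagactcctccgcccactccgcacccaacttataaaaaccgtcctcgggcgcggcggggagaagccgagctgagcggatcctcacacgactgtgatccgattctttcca
Among 25 glycolysis genes with a promoter in the table, 40% held this core, against 21.6% of all promoters. That share was not particular to glycolysis, since 39.5% of 38 mitosis genes held the core too. So did 31.6% of 38 genes of homologous recombination and the Fanconi anaemia pathway, 29.6% of 44 replication genes and 12.9% of 31 ATF4 targets. Only 24 of the 31 other HIF targets had an entry, under 80%, so their share is void.

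Of 6 HIF subunits and regulators 1 was higher and 2 lower. HIF1A had 138, 142 and 141 CPM in DMSO, 119, 115 and 118 under sunitinib and 119.7, 114 and 124 under compound 32, and the compounds overlapped. Its log2 difference was 0.02 ± 0.06 with a 95% interval from -0.10 to 0.15. EPAS1, which encodes HIF-2alpha, was lower under compound 32 (-0.76 ± 0.09): it had 42.4, 42.6 and 40.1 CPM in DMSO, 124, 128 and 102 under sunitinib and 65.9, 69.9 and 73.7 under compound 32. EGLN2 (0.59 ± 0.16) was higher. VHL (-0.25 ± 0.09), the ubiquitin ligase subunit for HIF, was lower at an edgeR adjusted p of 0.0352, a call that was lost without any 1 library of DMSO or of compound 32, where adjusted p lay between 0.0541 and 0.111, with the replicate block (0.0552) and with only the 6 libraries compared (0.0777).

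Iron handling was split, with 4 of 13 genes higher and 4 lower. TFRC, the transferrin receptor, had 978, 904 and 923 CPM in DMSO, 523, 531 and 455 under sunitinib and 1550.2, 1568 and 1477 under compound 32, the groups standing apart on either side of DMSO (1.61 ± 0.08, edgeR adjusted p = 3.91e-08). The ferritin genes FTH1 (-0.30) and FTL (-0.44) and the iron-sensing ligase subunit FBXL5 (-0.42 ± 0.07) were lower, and ACO1 (0.33 ± 0.06), the iron regulatory protein, and NCOA4 (0.30 ± 0.06), the ferritinophagy receptor, were higher. Among 18 histone and DNA demethylases 4 were higher and 4 lower, with KDM2B (0.90 ± 0.11) and KDM4A (-0.80 ± 0.08) on opposite sides.

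ATF4 targets were mostly lower under compound 32. Of 36 tested, 30 were lower and 3 higher, with a median of -0.92, or -0.91 without sunitinib replicate 3. TRIB3, a pseudokinase induced by stress, had 192, 189 and 171 CPM under sunitinib, 58.8, 63.0 and 59.3 in DMSO and 50.2, 49.8 and 53.2 under compound 32. PHGDH, the first enzyme of serine synthesis, had 306, 313 and 331 under sunitinib, 142, 143 and 133 in DMSO and 131, 133 and 144 CPM under compound 32 in that order. In these genes sunitinib stood above both other groups, while compound 32 lay just below DMSO in TRIB3 and overlapped it in PHGDH. Log2 differences were -1.85 ± 0.07 and -1.22 ± 0.07, with edgeR adjusted p of 4.8e-09 and 7.98e-08. SLC7A11 (-1.60), the cystine transporter, PSAT1 (-1.68), of serine synthesis, and DDIT3 (-2.08 ± 0.26), which encodes CHOP, were lower. DDIT3 reached 38.4, 37.1 and 76.7 CPM in the sunitinib libraries, replicate 3 being the highest. ATF3 (0.78), ATF5 (0.70) and VLDLR (0.29) were the genes higher under compound 32.

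CHAC1, a glutathione-degrading enzyme of the same list, had 45.4, 42.3 and 41.1 CPM under sunitinib, 8.50, 10.972 and 10.3 in DMSO and 7.31, 9.76 and 9.68 under compound 32 (-2.26 ± 0.13). Its promoter (chr15:40953221-40953520, plus strand, GRCh38.p14) is shown with the match to TGATGNAA, the composite site of ATF4 with C/EBP, in capitals on the opposite strand. It was chosen after its sequence was seen, since the PCK2 promoter held no match.
CHAC1: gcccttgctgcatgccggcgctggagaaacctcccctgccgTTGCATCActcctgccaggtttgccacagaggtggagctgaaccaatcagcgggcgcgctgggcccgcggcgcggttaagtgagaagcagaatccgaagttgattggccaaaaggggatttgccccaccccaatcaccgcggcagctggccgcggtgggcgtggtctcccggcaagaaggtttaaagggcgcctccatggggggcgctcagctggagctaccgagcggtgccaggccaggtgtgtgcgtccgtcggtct
The match was found in 16.1% of the 31 ATF4 targets with a promoter in the table and in 3.67% of all promoters.

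Cytosolic aminoacyl-tRNA synthetases, which charge tRNAs and several of which ATF4 induces, had 13 of 20 genes lower and 0 higher in edgeR's test, with 0 higher at an unadjusted p under 0.05 and 0 in DESeq2 and in limma voom. WARS had 345, 354 and 388 CPM under sunitinib, 139, 142 and 139 in DMSO and 127, 121 and 126 under compound 32, and SARS had 427, 432 and 512 under sunitinib, 207, 207 and 209 in DMSO and 175, 168 and 177 under compound 32. The sunitinib group was above the other groups in both. CARS (-1.03 ± 0.07) and MARS (-0.93 ± 0.06) followed, with 5.05% of the exon bases of MARS shared with DDIT3 on the opposite strand. Without sunitinib replicate 3, 4 members were higher and 14 lower. The mitochondrial synthetases had 3 higher and 4 lower of 17, with CARS2 (0.36 ± 0.08) and NARS2 (-0.34 ± 0.08) as examples of either direction.

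The endoplasmic reticulum branch of the unfolded protein response was mixed, at 4 higher and 6 lower of 22. XBP1 (-0.66 ± 0.06), its transcription factor, HERPUD1 (-0.64 ± 0.06) and SYVN1 (-0.56 ± 0.09), of degradation from the reticulum, were lower, and EDEM1 (0.48 ± 0.08) was higher. The chaperone HSPA5 (-0.15) was not called. The number higher was 9 without sunitinib replicate 3. Heat shock chaperones had 14 of 20 genes higher and SERPINH1 lower. HSPA1A had 181, 182 and 207 CPM under sunitinib, 338, 324 and 318 in DMSO and 310.3, 306 and 319 under compound 32, and CHORDC1, a co-chaperone of HSP90, had 136, 129.8 and 161 under sunitinib, 266, 249 and 241 in DMSO and 265, 251 and 252 under compound 32. In both, compound 32 lay in or near the range of DMSO and sunitinib was below. SERPINH1, a collagen chaperone of the reticulum, had 320.0, 333 and 321 CPM under sunitinib, 184, 191 and 181 in DMSO and 181, 175 and 174 under compound 32. Without sunitinib replicate 1, 2 chaperone genes were lower.

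Targets of p53 had 14 of 26 genes higher under compound 32 and 3 lower. CDKN1A, the cyclin-dependent kinase inhibitor p21, had 277, 286 and 289.8 CPM in DMSO, 393, 405 and 378 under sunitinib and 663, 685 and 732 under compound 32, so that both groups were above DMSO without overlap (0.82 ± 0.07, edgeR adjusted p = 1.64e-06). BTG2, an antiproliferative factor, had 9.73, 9.65 and 7.397 in DMSO, 8.205, 9.98 and 12.48 under sunitinib and 28.9, 27.3 and 28.5 CPM under compound 32, with compound 32 alone set apart. PPM1D (1.41 ± 0.09), a phosphatase that ends damage signals, PHLDA3 (0.83 ± 0.08), MDM2 (0.63) and FAS (0.65) were higher, while POLH (1.43 ± 0.08), of translesion synthesis, belongs to both lists. TP53I3 (-0.63), PLK2 (-0.32) and XPC (-0.21) were lower, and BAX (0.04), BBC3 (0.05) and GADD45A (0.07) were not called. Of 16 genes of the BCL2 family, 6 were higher and 2 lower. PMAIP1, which encodes NOXA, had 45.2, 46.2 and 42.5 CPM in DMSO, 51.6, 46.4 and 59.9 under sunitinib and 67.4, 75.4 and 67.9 under compound 32 (0.42 ± 0.09). BID (0.62 ± 0.10), BCL2 (0.66 ± 0.17) and BCL2L11 (1.06 ± 0.14), which encodes BIM and overlaps MIR4435-2HG over 10.9% of its exon bases, were higher. MCL1 (-0.05) and BCL2L1 (-0.18) were not called. The number lower was 4 without sunitinib replicate 3 and 1 without compound 32 replicate 1 or 2.

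Of 22 receptor tyrosine kinase genes that passed the count filter, out of 35 listed, 9 were higher under compound 32 and 2 lower. EPHA4, an ephrin receptor, had 5.64, 6.12 and 5.66 CPM in DMSO, 6.30, 6.45 and 5.46 under sunitinib and 18.04, 17.3 and 15.9 under compound 32 (1.49 ± 0.11), and TYRO3, of the GAS6 receptors, had 33.8, 33.5 and 34.9 in DMSO, 21.2, 20.3 and 15.9 under sunitinib and 44.0, 45.6 and 47.8 under compound 32 (1.26 ± 0.10). DDR2, a collagen receptor, was on the other side, at 162, 145 and 158 CPM in DMSO, 284, 284 and 223 under sunitinib and 129, 124 and 115 under compound 32 (-1.11 ± 0.10). MET (0.10), AXL (-0.32) and PDGFRB (-0.23) were not called. The number lower was 4 without sunitinib replicate 3, and 1 without sunitinib replicate 1 or without any 1 library of DMSO or compound 32. Among 21 ligands and neuropilins 10 were higher and 4 lower. KITLG, stem cell factor and the ligand of KIT, had 11.6, 12.3 and 10.999 CPM in DMSO, 4.34, 5.95 and 4.10 under sunitinib and 27.0, 27.4 and 23.5 under compound 32, and EFNB2, an ephrin, had 16.4, 13.1 and 15.2 in DMSO, 9.21, 10.0 and 7.67 under sunitinib and 33.0, 30.5 and 30.5 under compound 32. In both the compounds lay on opposite sides of DMSO, with log2 differences of 2.44 ± 0.14 and 1.80 ± 0.12 (edgeR adjusted p = 1.11e-07 and 3.45e-07). CSF1 (1.21 ± 0.10) and PDGFC (0.52 ± 0.06) were higher, and NRP1 (-0.51) and FGF2 (-0.29) lower.

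ERK feedback and immediate early genes had 11 higher and 5 lower of 22. SPRY1, a feedback inhibitor of receptor signalling, had 1.88, 1.32 and 0.965 CPM in DMSO, 2.22, 1.92 and 1.89 under sunitinib and 6.34, 6.70 and 7.35 under compound 32 (1.75 ± 0.20). FOS (2.33 ± 0.31), JUN (0.53 ± 0.06) and ETV4 (0.58 ± 0.07) were higher and PHLDA1 (-0.58 ± 0.06) lower, with FOS at a mean of under 5 CPM. Feedback genes SPRY4 (0.03), DUSP4 (-0.14) and ETV5 (-0.02) were not called. YAP and TEAD targets had 5 higher and 2 lower of 12, with LATS2 (1.09 ± 0.08) and F3 (1.06 ± 0.12), tissue factor, against AJUBA (-0.83 ± 0.07) and NT5E (-0.64 ± 0.07), the ectonucleotidase CD73.

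Inflammatory genes were evenly divided, at 8 higher and 8 lower of 24. IL1B had 17.97, 17.99 and 16.7 CPM in DMSO, 84.3, 84.3 and 123 under sunitinib and 26.6, 23.5 and 21.6 under compound 32 (-2.02 ± 0.14), with sunitinib replicate 3 the highest library, and the difference was -1.82 without it. CXCL2 (-1.39 ± 0.22) and IL1A (-1.09) were also lower. TNFAIP3, an inhibitor of NF-kappaB signalling, had 10.8, 11.2 and 12.48 in DMSO, 12.6, 12.4 and 11.4 under sunitinib and 25.5, 26.4 and 26.8 CPM under compound 32 (1.11 ± 0.09), and BIRC3 (0.92 ± 0.07) and CSF2 (2.11) were higher. In the interferon and MHC class I list 3 of 29 were higher and 9 lower. STAT2 (-0.83 ± 0.09), of interferon signalling, and HLA-E (-0.40 ± 0.06) were lower, and IFI44 (0.88 ± 0.13) and OAS3 (0.76 ± 0.12) higher. The counts were 6 and 7 without sunitinib replicate 3. Ligands of NKG2D, a receptor of natural killer cells, differed among themselves. ULBP1 had 3.70, 2.82 and 3.60 CPM in DMSO, 15.8, 15.2 and 20.5 under sunitinib and 4.72, 4.00 and 4.54 under compound 32 (-1.95 ± 0.16), while MICB had 34.1, 37.1 and 34.1 in DMSO, 25.6, 23.6 and 27.2 under sunitinib and 49.5, 51.5 and 52.5 under compound 32 (1.01 ± 0.08). MICA (0.28 ± 0.07) and ULBP2 (0.35 ± 0.11) were slightly higher under compound 32, and the call of ULBP2 was lost without sunitinib replicate 2 (edgeR adjusted p = 0.0719), without compound 32 replicate 2 or 3 (0.068 and 0.0513) and with upper-quartile factors (0.0681).

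Cholesterol genes had 7 higher and 5 lower of 24. STARD4, a sterol carrier, had 97.2, 94.6 and 94.0 CPM in DMSO, 133, 128 and 127 under sunitinib and 181, 188 and 177 under compound 32 (0.49 ± 0.06), and TM7SF2 (-1.63 ± 0.15), a sterol reductase, and FDFT1 (-0.62 ± 0.08), squalene synthase, were lower. Without sunitinib replicate 3 the number lower was 8. In fatty acid synthesis 5 of 10 were lower and 1 higher. ACSS2, which makes acetyl-CoA from acetate, had 10.6, 9.47 and 11.5 in DMSO, 32.4, 33.9 and 34.4 under sunitinib and 15.5, 13.4 and 15.8 CPM under compound 32 (-1.17 ± 0.10). ELOVL6 (-0.64 ± 0.07) and SCD (-0.35 ± 0.08), which elongate and desaturate fatty acids, were lower. Lysosome and autophagy genes had 8 higher and 16 lower of 39. RRAGD, a GTPase of amino acid sensing at the lysosome, had 17.0, 16.7 and 16.9 CPM in DMSO, 12.9, 13.5 and 13.0 under sunitinib and 33.8, 29.8 and 35.0 under compound 32 (1.32 ± 0.09), and FNIP2 (1.11 ± 0.10) was on the same side. The hydrolase TPP1 (-0.68 ± 0.07) and WIPI1 (-1.21 ± 0.12), which shares 24.3% of its exon bases with ARSG, were lower. In the MondoA and MAX network list 2 were higher and 4 lower of 12, and the number higher was 1 without compound 32 replicate 2 or 3. TXNIP, a MondoA target that limits glucose uptake, had 18.4, 15.9 and 13.4 CPM in DMSO, 80.8, 68.2 and 84.1 under sunitinib and 40.2, 39.3 and 48.3 under compound 32, both above DMSO and lower under compound 32 (-0.87 ± 0.12).

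Redox genes of the NRF2 list had 5 higher and 4 lower of 20, and 8 and 5 without sunitinib replicate 3. GSR (0.68 ± 0.07), glutathione reductase, and HMOX1 (0.56 ± 0.08), haem oxygenase, were higher and ABCC3 (-1.32 ± 0.20) was among those lower, while NQO1 (-0.27) was not called. In the matrix list 5 were higher and 6 lower of 28, and 8 and 9 without that library. MMP14, a membrane metalloproteinase, had 701, 723 and 699 CPM in DMSO, 532, 563 and 484 under sunitinib and 840.3, 865 and 864 under compound 32 (0.70 ± 0.07), and TNC (-0.62 ± 0.11) and LAMB3 (-0.47 ± 0.08) were lower. Among 15 genes of epithelial and mesenchymal state 3 were higher and 5 lower. CLDN1, a tight junction claudin, had 252, 251 and 251 CPM in DMSO, 504, 484 and 519.6 under sunitinib and 293, 276 and 270.0 under compound 32 (-0.85 ± 0.06), and TWIST1 (0.38 ± 0.11) was higher, a call lost without compound 32 replicate 3 (edgeR adjusted p = 0.0699). The number lower was 3 without sunitinib replicate 1 or without compound 32 replicate 1 or 2, and the number higher was 1 without compound 32 replicate 3. Of 10 transporters of platinum and other drugs 4 were higher, ABCC5 (0.80 ± 0.08) and ABCB1 (0.78 ± 0.16) among them, and 3 lower, among them the copper transporters SLC31A1 (-0.35 ± 0.07) and ATP7B (-0.44 ± 0.12). The median of that list was 0.15 with all libraries and -0.07 without sunitinib replicate 3.

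Counts of called genes of ribosomes and of respiration changed when sunitinib replicate 3 was left out. Of 84 ribosomal protein genes 35 were lower under compound 32 and 0 higher in edgeR's test, with 0 higher at an unadjusted p under 0.05 and 0 in DESeq2 and in limma voom. The median was -0.39. RPL3 had 1344, 1429 and 1361 CPM in DMSO, 1689.6, 1714 and 2239 under sunitinib and 1228, 1222 and 1283 under compound 32, so that replicate 3 was the highest sunitinib library by a wide margin. Its log2 difference was -0.60 ± 0.10, and -0.45 without replicate 3. Without that library the list had 6 higher, 43 lower and a median of -0.12. The number lower was 60 without sunitinib replicate 1, between 8 and 13 without any 1 compound 32 library and 22 without any 1 DMSO library. In the same replicate 3, ribosomal protein genes took 7.65% of counts, and the part of this in the list's difference was not tested. Ribosomal protein genes have many near-identical pseudogenes, so their counts are uncertain.

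Nuclear genes of the respiratory chain had 2 of 59 higher and 4 lower, with a median of -0.13. Without sunitinib replicate 3 there were 18 higher and 4 lower of 59, and the median was 0.04. In that fit 29.7% of all genes tested were higher and 29% lower, so the number higher was near the share over all genes. The number lower was 15 without sunitinib replicate 1 and 12 without replicate 2, and the number higher was 1 without compound 32 replicate 3. SDHA, of complex II, had 140.2, 139 and 139 CPM in DMSO. It had 109, 116 and 114 under sunitinib and 164, 168 and 181 under compound 32 (0.60 ± 0.06, edgeR adjusted p = 1.23e-05). The SDHA groups did not overlap. SDHD (0.33 ± 0.09) was the other gene higher. SDHC (-0.38 ± 0.08), also of complex II, and NDUFB10 (-0.51 ± 0.11) were among the 4 lower. Among 13 messages of the mitochondrial genome 1, MT-ATP8, was lower (-1.55 ± 0.49) and 0 higher in edgeR's test, with 0 higher at an unadjusted p under 0.05 and 0 in DESeq2 and in limma voom. It had 15.7, 16.8 and 67.2 CPM in the sunitinib libraries, where replicate 3 alone was high, the difference was -0.53 without it, and 22.2% of its bases overlap MT-ATP6. The MT-ATP8 call was lost without compound 32 replicate 2 or 3, at an edgeR adjusted p of 0.0574 and 0.0592, without a filter on low counts (0.163) and in limma voom (0.073). MT-CO2 had 2484, 2392 and 4544 CPM under sunitinib and 2887, 2891 and 3034 under compound 32. With all libraries it was not called (-0.10 ± 0.20, edgeR adjusted p = 0.712), and without sunitinib replicate 3 it was higher under compound 32, by 0.27 (edgeR adjusted p = 1.13e-09). Counts for the list were 4 higher and 2 lower without that library, and 3 lower without sunitinib replicate 1 or 2.

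Ribosome biogenesis genes had 6 higher and 6 lower of 30. RRS1, an assembly factor of the large subunit, had 117, 124 and 122 CPM in DMSO, 77.1, 77.6 and 84.1 under sunitinib and 59.7, 55.3 and 54.1 under compound 32 (-0.50 ± 0.07), and UTP20, of the small subunit processome, had 173, 166 and 182 in DMSO, 91.8, 99.1 and 73.8 under sunitinib and 119, 122 and 111 under compound 32 (0.41 ± 0.10). Both genes were below DMSO in every treated library, with compound 32 lowest for RRS1 and sunitinib lowest for UTP20. The number higher was 12 without sunitinib replicate 3 and 2 or 3 without any 1 of the other libraries of the compounds.

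**Figure D5:**
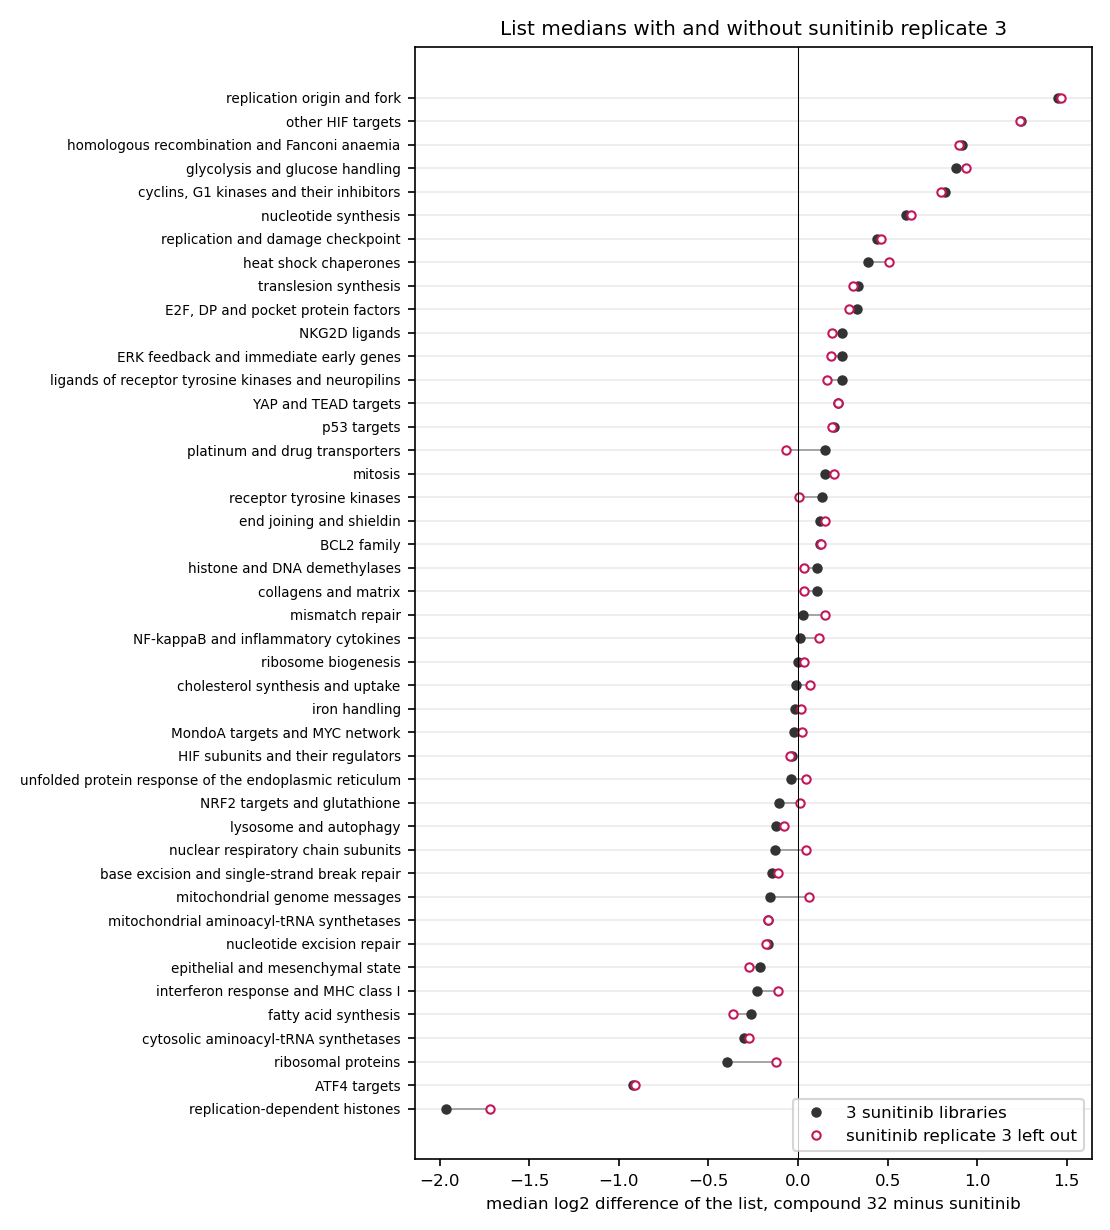
Median log2 difference, compound 32 minus sunitinib, of 44 gene lists from the fit of all 9 libraries (filled) and from the fit without sunitinib replicate 3 (open). The replication list goes from 1.45 to 1.47 and the ATF4 list from -0.92 to -0.91, while the ribosomal protein list goes from -0.39 to -0.12 and the respiratory chain list from -0.13 to 0.04.

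Some protein-coding genes lay, by estimate and without a test, at least 2-fold from DMSO on the same side under both compounds, whatever the difference between the compounds. There were 71 such genes among the 12471 protein-coding genes tested, and other gene types were not counted. The 6 of them with the narrowest bound on the difference between the compounds, chosen for their similar levels, are given as a description. DUSP1, a MAP kinase phosphatase, had 56.6, 56.3 and 56.5 CPM in DMSO, 138, 137 and 128 under sunitinib and 144, 136 and 149.5 under compound 32, a log2 difference of 0.09 ± 0.06 with a 95% interval from -0.04 to 0.23. VEGFA, the angiogenic growth factor, had 21.3, 20.3 and 19.6 in DMSO, 59.3, 56.5 and 58.8 under sunitinib and 55.7, 52.1 and 49.96 CPM under compound 32, and an interval from -0.30 to 0.00. TGFA, a ligand of the EGF receptor, had 16.2, 16.8 and 17.2 in DMSO, 41.6, 44.0 and 37.1 under sunitinib and 39.0, 37.9 and 40.8 CPM under compound 32, and its interval ran from -0.23 to 0.12. The groups under the compounds overlapped or adjoined each other in these genes. PLAT (tissue plasminogen activator), CXCL8 (interleukin-8) and JAG1 (a Notch ligand) were the others, at -0.02 ± 0.09, 0.02 ± 0.15 and -0.06 ± 0.13. For CXCL8 the difference was 0.23 and called (edgeR adjusted p = 0.0162) without sunitinib replicate 3.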

How the data were processed

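Poly(A) RNA of 9 HEYA8 samples was sequenced, per the labels' protocols. The values are raw read counts as deposited, for 58735 genes with the identifiers and coordinates of GENCODE 29 (GRCh38). The submitters' processing notes name fastp, HISAT2 2.0.5 and featureCounts, and DESeq2 and edgeR, without saying what each was for, and they list a mouse build beside hg38. No source used here gives the strand setting by which the authors counted. Library totals ran from 15498101 to 18006171 counts.

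From the deposited counts, genes were kept by filterByExpr (15232), scaled by TMM factors (0.983 to 1.051) and tested with edgeR 4.0.16 (R 4.3.3), by robust quasi-likelihood F tests on group means over all 9 libraries, with 6 residual degrees of freedom and Benjamini-Hochberg adjustment. CPM use the TMM factors. Medians of lists per library use log2 CPM with a prior count of 2. The comparison and the 44 gene lists were chosen with earlier results of these data known. Named genes were the 12 protein-coding genes with the largest difference in each direction (called, at least 5 CPM over the 6 libraries, no overlap), up to 4 called members with the smallest p of each list, 5 noncoding genes per direction, 6 near-equal genes and genes whose call turned on sunitinib replicate 3. Other members are named to account for their list, and some are not reported here. Promoters are from RefSeq (GRCh38.p14), matched by symbol and chromosome for 10857 of the tested genes. Counts of every replicate pair differed beyond sampling noise: chi-square divided by its degrees of freedom was at least 1.856, and was 46.04 and 47.56 for the pairs with sunitinib replicate 3. Alternatives were other scalings, filters and thresholds, DESeq2 1.42.0, limma 3.58.1 voom, a replicate block, the 6 libraries alone and leaving out each library.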

Additional observations from a re-analysis of the deposited data

How the results depend on the processing

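The number of genes higher in compound 32 than in sunitinib was 3008 to 4631, and that of genes lower in compound 32 than in sunitinib was 3168 to 4712, over all alternatives to the scaling, filter, tool and samples. Counts at least 2-fold were 820 and 1230, and at an adjusted p under 0.01 they were 2744 and 2630. Leaving out 1 library in turn gave 3183 to 4620 higher and 3168 to 4519 lower, the lowest without compound 32 replicate 1 and 2 and the highest without sunitinib replicate 3. The 5 libraries compared other than sunitinib replicate 3, an alternative added after seeing the data, gave 4631 and 4554. Upper-quartile factors gave 3008 and 4712, so that 39% of calls were higher against 48.9% with TMM, at a median of -0.11 over all genes, and library totals gave 3090 and 4470. With these factors the medians of mismatch repair (-0.06 and -0.03) and of NF-kappaB and inflammatory cytokines (-0.08 and -0.05) turned negative, and with DESeq2's size factors those of cholesterol synthesis and uptake (0.0044) and ribosome biogenesis (0.013) turned positive. MT-ND4 went from -0.27 to 0.080 and MT-CO2 from -0.26 to 0.27 when 1 library was left out, the highest without sunitinib replicate 3, and with the 5 libraries MT-ND4 was at 0.078 and MT-CO2 at 0.27. The cause was not tested. Deviations of same-numbered samples from their group means had correlations from -0.0769 to 0.0609 over all genes. With 3 libraries per group, such values cannot show whether the numbers pair samples. A fit with the replicate block gave 3535 higher and 3639 lower. SLC25A34-AS1, AC112484.3, SNRPEP4, AC104561.3, AC104986.2 and AL355312.3, all under 4 CPM in every library of the compounds and highest in sunitinib replicate 3, were called at -1.65 to -1.10 with all libraries and not called without it, at -0.85 to -0.55. At such levels counting error limits what this depth can show.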

Other observations

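Of 2761 noncoding genes tested, here all types other than protein-coding, 778 were lower and 274 higher under compound 32. The share lower was near the 25.2% over all genes tested, and the share higher was well under the 24.1%. The count filter kept genes that are high in 1 group, so these counts do not stand for all noncoding genes. The imbalance between lower and higher was not in every type. Sense intronic genes had 16 lower and 16 higher of 122, and miRNA genes had 1 lower and 4 higher of 22. Processed pseudogenes had a median log2 difference of -0.11, and of 0.02 without sunitinib replicate 3. Of 597 lincRNA genes tested, 242 were lower and 49 higher under compound 32, with a median log2 difference of -0.56, and of 787 antisense genes 246 were lower and 70 higher, with a median of -0.36. The strand setting of the counts is unknown here, so reads of an antisense gene and of the gene opposite cannot be told apart. Protein-coding genes, by comparison, had 3056 lower and 3390 higher of 12471. LincRNA genes took 0.462 to 0.483% of the counts in the sunitinib libraries, 0.321 to 0.336% in DMSO and 0.287 to 0.3% in compound 32. The number of genes with a count was 23765 to 24077 under sunitinib, 22799 to 23124 under compound 32 and 22217 to 22602 in DMSO. The largest differences downward among these genes were in AL365181.2 (-3.73 ± 0.14), AL662795.2 (-2.99 ± 0.15), AC021054.1 (-2.66 ± 0.20), PSMG3-AS1 (-2.56 ± 0.14) and AL590560.1 (-2.43 ± 0.17). AL365181.2 had 28.9, 25.3 and 30.4 CPM under sunitinib, 5.51, 4.50 and 4.70 in DMSO and 1.94, 2.32 and 2.09 under compound 32. Upward they were in AC112777.1 (2.12 ± 0.15), AL161431.1 (2.02 ± 0.10), EMC3-AS1 (1.93 ± 0.10), AK4P1 (1.70 ± 0.18) and AL161891.1 (1.66 ± 0.16). Of the exon bases of AC021054.1, 15.69% overlap NINJ2 on the opposite strand, as do 6.139% of those of EMC3-AS1 with EMC3. AK4P1 is a pseudogene of AK4, so its reads may come from that gene. The largest edgeR adjusted p among these 10 genes was 1.43e-05, that of AK4P1.

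Keratin and claudin genes, chosen after their values were seen, differed between the compounds in both directions. KRT7, a simple epithelial keratin, had 66.0, 75.4 and 75.3 CPM in DMSO, 215, 226 and 231 under sunitinib and 64.0, 64.3 and 70.2 under compound 32 (-1.76 ± 0.07, edgeR adjusted p = 1.29e-08). KRT8 (0.45 ± 0.06) and KRT18 (0.35 ± 0.09), also keratins of simple epithelia, were higher under compound 32. Among claudins at means under 3 CPM in each group, CLDN7 (-3.09 ± 0.32) and CLDN4 (-1.76 ± 0.43) were lower, CLDN5 (3.13 ± 0.62) was higher and CLDN3 (-0.01 ± 0.51) was not called. CDH5, an endothelial cadherin, had 6.42, 8.21 and 7.46 CPM in DMSO. It had 15.3, 14.6 and 11.4 CPM under sunitinib and 4.46, 4.00 and 3.82 CPM under compound 32.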
